A study of Mus musculus with 6 samples.

Results

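The 10 genes described here are transcription factors of the proximal and distal lung epithelium. They are Nkx2-1, Sox2, Sox9, Id2, Mycn, Grhl2, Elf3, Elf5, Ehf and Klf5, called patterning factors here. The members were chosen by gene symbol, with earlier results of these data known. All 10 of 10 were measured, among 21950 gene symbols on the array, and each was represented by 1 probe set, a group of probes read as 1 value. The samples were whole lungs taken from mouse embryos of stage E14.5, with 3 arrays of control lungs that carried Shh-cre alone and 3 arrays of mutant lungs of the genotype Shh-cre with Foxp1 flox/flox and Foxp4 flox/flox, 1 embryo per array. Both groups carried Shh-cre on a mixed C57BL/6 and 129X1,129S1 background. Shh-cre is active in the epithelium of the developing lung, so the mesenchyme, vessels and nerves in the same sample are not expected to recombine. The labels do not say whether the controls carried floxed alleles.

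The lung epithelium grows as a branching tree. Cells at the distal tips divide and make the future alveoli, while cells left behind in the stalks become the conducting airways. Nkx2-1 marks the whole lineage from the foregut onwards, Sox2 marks the proximal stalks, and Sox9, Id2 and Mycn are genes of the distal tips. Grhl2 and Klf5 serve epithelial identity and maturation, and Elf3, Elf5 and Ehf form an epithelium-restricted branch of the ETS family, whose members share a DNA-binding domain.

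Of the deleted genes, Foxp4 fell by 0.41 on the log2 scale (limma adjusted p = 0.0190) and Foxp1 had a log2 difference of -0.27 (adjusted p = 0.0884), on probe sets that can lie outside the deleted exons. The Foxp4 call ended without control 2, mutant 2 or mutant 3 (adjusted p from 0.0342 to 0.0876 over the 6 fits without 1 array). Array medians lay between 8.21 and 8.23. Control 3 stood apart in its Xist value, 12.83 against 6.00 to 6.23 on the other arrays, which is the pattern of a female embryo. Differences without it are given for Elf5, Ehf and Mycn, and it is among the arrays left out in the fits without 1 array. Most other values, the summed marker levels among them, rest on all 6 arrays. Foxp1 lies on chromosome 6 and Foxp4 on chromosome 17, and 0 of the 10 patterning factors lie on either.

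Among the patterning factors, Elf5 fell in the mutant lungs, by 1.25-fold, a call that ended in each of the 6 fits without 1 array. Its relative Ehf was 1.30-fold higher on average, with every mutant array above every control array, but did not pass the test over all probe sets. Nkx2-1, Sox2 and Sox9, the factors that define lung, stalk and tip, differed by at most 0.10 on the log2 scale with overlapping groups. In the fit across the array, 1 of the 10 members passed an adjusted p of 0.05 and it was lower, where 0.774% of all 28815 probe sets passed in either direction, 0.260% as lower and 0.514% as higher. The groups did not overlap for 4 of the 10 members, Elf5, Ehf, Mycn and Id2, against 18.0% of all probe sets. At an unadjusted p under 0.05 there were 3 members, Elf5, Ehf and Mycn, against 11.8% of all probe sets. In whole lung, fewer cells that express a gene and less of its RNA per cell cannot be told apart.

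**Figure D1:**
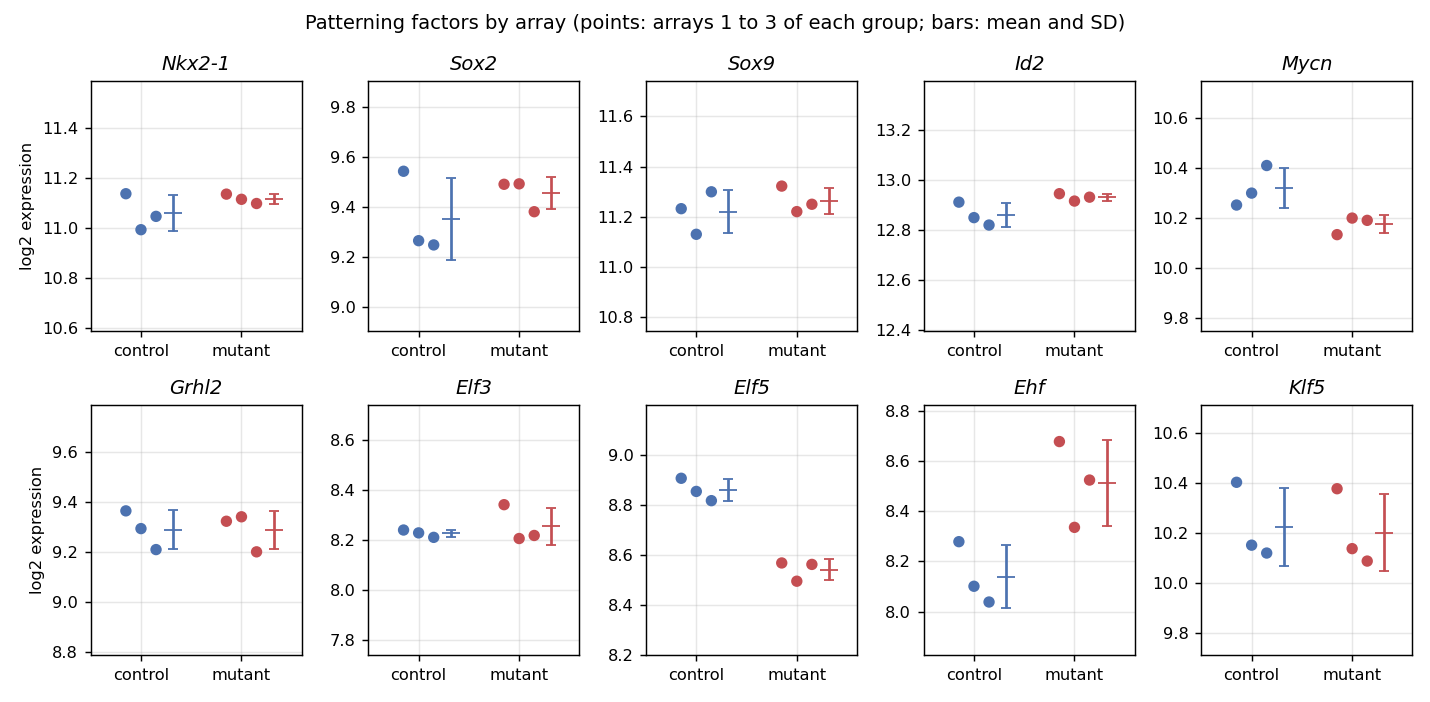
Log2 expression (y axis, each panel spanning 1 log2 unit) of the 10 patterning factors in control and mutant lungs (x axis). Points are single arrays and the bars beside them give the mean and SD of 3 arrays; Elf5 separates downwards and Ehf upwards, while Nkx2-1, Sox2, Sox9, Grhl2, Elf3 and Klf5 overlap.

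Nkx2-1, the homeodomain factor that sets lung identity, stood at 11.14, 10.99 and 11.04 in controls 1 to 3 and at 11.13, 11.11 and 11.10 in mutants 1 to 3 (log2 values). The mutant values all fell inside the control range. The log2 difference was 0.06 with a 95% interval of -0.06 to 0.18 (limma adjusted p = 0.688), which bounds the change at between 0.958 and 1.13 times the control level.

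Sox2, the SRY-box factor of the proximal airway, stood at 9.54, 9.26 and 9.25 in controls and at 9.49, 9.49 and 9.38 in mutants. Control 1 was higher than all 3 mutants, and the other controls were lower than all of them. The control mean was 9.35 ± 0.17 and the mutant mean 9.45 ± 0.06 (SD, n = 3 each), a log2 difference of 0.10 with an interval of -0.09 to 0.30 (limma adjusted p = 0.661). Without control 1 the difference was 0.20 (adjusted p = 0.210), nearly double in size and still short of the threshold.

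Sox9, the SRY-box factor of the distal tip, stood at 11.23, 11.13 and 11.30 in controls and at 11.32, 11.22 and 11.25 in mutants. The groups overlapped, and the log2 difference was 0.04 with an interval of -0.09 to 0.18 (limma adjusted p = 0.792). The log2 ratio of Sox2 to Sox9 ran from -2.05 to -1.69 in controls and from -1.87 to -1.73 in mutants. Its absolute size depends on the 2 probe sets, and only a constant offset between them cancels in its change between arrays. All 3 mutant ratios lay inside the control range, and the mean ratio moved by 0.06.

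Id2, an inhibitor of basic helix-loop-helix factors and a marker of the distal tip, stood at 12.91, 12.85 and 12.82 in controls and at 12.94, 12.92 and 12.93 in mutants. Every mutant array was above every control array, but the nearest pair lay only 0.0043 apart. The log2 difference was 0.07 with an interval of -0.03 to 0.18 (limma adjusted p = 0.577).

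Mycn, a Myc-family factor needed for growth of the distal epithelium, stood at 10.25, 10.30 and 10.41 in controls and at 10.13, 10.20 and 10.19 in mutants. Here every mutant array was below every control array, with 0.05 between the nearest pair. The mean went from 10.32 ± 0.08 to 10.18 ± 0.04 (SD, n = 3 each), a log2 difference of -0.15 with an interval of -0.27 to -0.02. This did not pass (limma adjusted p = 0.365), and without control 3, its highest array, the difference was -0.10 (adjusted p = 0.542). Id2 and Mycn, both genes of the tip and both on chromosome 12, thus lay on opposite sides of their controls.

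Grhl2, a grainyhead factor that maintains epithelial junctions, stood at 9.36, 9.29 and 9.21 in controls and at 9.32, 9.34 and 9.20 in mutants. The log2 difference was -0.00109, with a 95% interval of -0.14 to 0.14. The interval spans 0.906 to 1.10 times the control level.

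Klf5, a zinc finger factor of epithelial maturation, stood at 10.40, 10.15 and 10.12 in controls and at 10.38, 10.14 and 10.09 in mutants. In each group the first embryo stood above the other two, and the group means were nearly equal (log2 difference -0.02, interval -0.26 to 0.21, limma adjusted p = 0.937). Klf5 had the widest interval of the 10 members, so larger changes could be missed there than in the other members.

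Of the 3 ETS members, Elf5 passed the test and Elf3 and Ehf did not. Elf3, which is expressed widely in simple epithelia, stood at 8.24, 8.23 and 8.21 in controls and at 8.34, 8.21 and 8.22 in mutants. Mutant 1 was above all controls and the other mutants lay within or just below the control range, giving a log2 difference of 0.03 with an interval of -0.09 to 0.15 (limma adjusted p = 0.849).

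Elf5 is an FGF-responsive ETS factor of the distal embryonic lung epithelium in the mouse and a regulator of alveolar differentiation in the mammary gland. It stood at 8.91, 8.85 and 8.82 in controls and at 8.57, 8.49 and 8.56 in mutants. The highest mutant array lay 0.25 below the lowest control, where the SD within each group was 0.04. The mean went from 8.86 to 8.54, a fall of 1.25-fold (log2 difference -0.32, SE 0.05, interval -0.43 to -0.21, limma adjusted p = 0.0323). In the authors' deposited table, a comparison of the same 6 arrays, Elf5 had a fold of -1.25 and a q of 1.27%. There 1.72% of all probe sets had a q under 5%. In the fits without 1 array the adjusted p ran from 0.0741 to 0.147, and the difference stayed between -0.34 and -0.29.

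Ehf, an ETS factor of airway and other mucosal epithelia, stood at 8.28, 8.10 and 8.04 in controls and at 8.68, 8.34 and 8.53 in mutants. The groups did not overlap, with 0.06 between control 1 and mutant 2. The spread was larger than for Elf5, with means of 8.14 ± 0.13 and 8.51 ± 0.17 (SD, n = 3 each), so that a larger difference, 0.37 (SE 0.10, interval 0.15 to 0.60), did not pass (limma adjusted p = 0.200). In the authors' deposited table its fold was 1.30 with a q of 10.2%. With array weights, a fit in which control 2 alone had a weight of 9.2 against 0.40 to 0.92 for the others, the difference was 0.40 and Ehf passed (adjusted p = 0.0237), in a setting that called 6.07% of all probe sets. Within each array the log2 ratio of Ehf to Elf5 ran from -0.78 to -0.63 in controls and from -0.16 to 0.11 in mutants, a mean shift of 0.69. Every mutant ratio had to lie above every control ratio, because Ehf was higher and Elf5 lower on every mutant array. The ratio is thus a restatement of the 2 genes and no further result. Without control 3 Elf5 differed by -0.34 (adjusted p = 0.0741) and Ehf by 0.32 (adjusted p = 0.376).

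**Figure D2:**
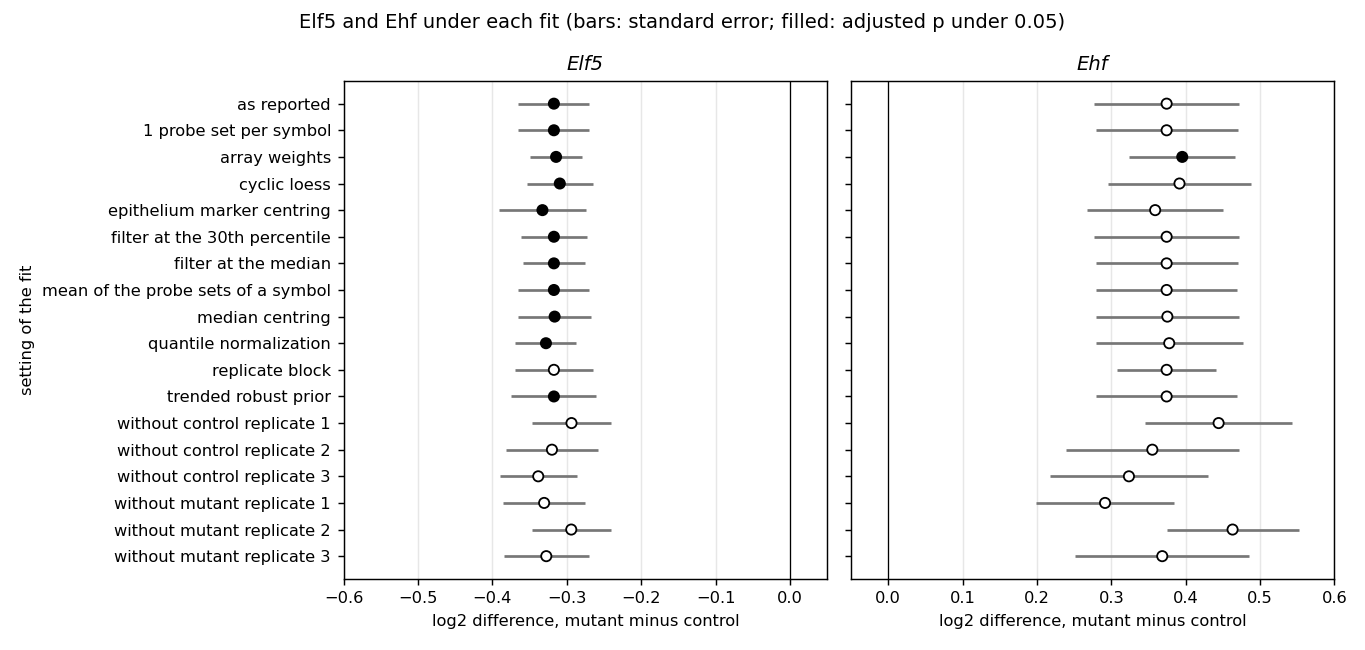
Log2 difference between mutant and control (x axes) of Elf5 and Ehf under each fit (y axis), with standard errors as bars and filled points where the adjusted p was under 0.05. Elf5 stays between -0.34 and -0.29 and Ehf between 0.29 and 0.46, while their calls change with the fit.

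Elf5 and Ehf are near neighbours on mouse chromosome 2, with 1 measured gene between them in the order of assembly GRCm38.p6. That gene, BC016548, had a log2 difference of -0.03 (limma adjusted p = 0.884). Cat, the catalase gene on the far side of Elf5, went from 12.24 ± 0.03 to 12.18 ± 0.02 (log2 difference -0.06, adjusted p = 0.615), and Apip, on the far side of Ehf, differed by 0.05 (adjusted p = 0.718). The differences of Elf5 and Ehf thus ran in opposite directions while these 3 other measured genes differed by at most 0.06.

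Forkhead proteins such as Foxp1 and Foxp4 bind DNA around the core AAACA, most strongly within longer sites such as GTAAACA, and the bases upstream of the members were searched for both words on both strands. RefSeq windows of assembly GRCm38.p6, taken here as the 250 bases before a start site, were held for 6 of the 10 members, in 7 windows; Sox9, Grhl2, Ehf and Klf5 were not searched. The Elf5 windows are shown because Elf5 is the member that passed, and the Nkx2-1 window because it is the only one of the 7 that holds the core. Capitals mark AAACA or its reverse complement TGTTT, and all sequences read 5′ to 3′ on the gene's strand.
Elf5, start 1, chr2:103411848-103412097, plus strand: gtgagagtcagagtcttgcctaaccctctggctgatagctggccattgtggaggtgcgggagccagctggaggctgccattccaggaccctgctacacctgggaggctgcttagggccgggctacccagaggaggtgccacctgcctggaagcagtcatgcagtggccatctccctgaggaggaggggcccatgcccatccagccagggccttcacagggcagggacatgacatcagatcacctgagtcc
Elf5, start 2, chr2:103423818-103424067, plus strand: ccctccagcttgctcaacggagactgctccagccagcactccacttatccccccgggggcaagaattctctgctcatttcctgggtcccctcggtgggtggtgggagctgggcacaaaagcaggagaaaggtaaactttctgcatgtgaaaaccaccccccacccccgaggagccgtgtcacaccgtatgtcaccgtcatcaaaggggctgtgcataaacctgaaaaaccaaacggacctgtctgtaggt
Nkx2-1, chr12:56536909-56537158, minus strand: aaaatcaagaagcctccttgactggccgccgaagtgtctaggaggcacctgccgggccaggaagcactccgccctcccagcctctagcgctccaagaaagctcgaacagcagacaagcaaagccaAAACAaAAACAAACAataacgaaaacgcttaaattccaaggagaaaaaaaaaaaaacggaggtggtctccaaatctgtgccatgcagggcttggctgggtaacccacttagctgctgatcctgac
The Nkx2-1 window held 3 copies of AAACA close together, of which 2 share a base, and the Elf5 windows held 0. Among all 32851 windows of this length, 46.4% held AAACA on either strand and 3.17% held the longer GTAAACA, which itself contains the shorter word. The longer word was in 0 of the 7 windows of the members. These matches describe letters in a short window and say nothing of binding.

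The arrays of a group were also ordered for each member. Control 1 was the highest control for 8 of the 10 members, all but Sox9 and Mycn, which were highest in control 3, where control 1 was the highest for 34.8% of all probe sets. Control 3 was the lowest control for 7 of the members and for 36.2% of all probe sets. Mutant 1 was the highest mutant for 7 of the members and for 42.4% of all probe sets. The mean of 14 epithelium markers that are not members, among them Epcam, Cdh1, Krt8 and Krt18, was 10.94, 10.90 and 10.91 in controls and 10.96, 10.95 and 10.88 in mutants. Control 1 and mutant 1 were highest there too, but the lowest control was control 2 and not control 3. These orders were not tested. When every array was centred on those 14 markers, an alternative chosen after seeing the data, Elf5 differed by -0.33 (limma adjusted p = 0.0353) and Ehf by 0.36 (adjusted p = 0.162).

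**Figure D3:**
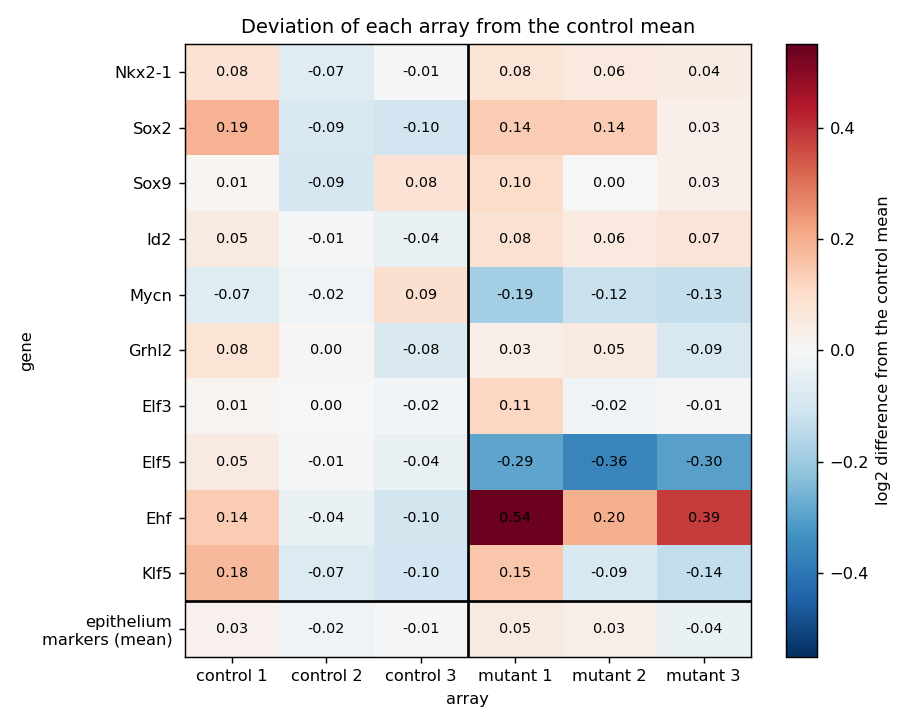
Difference of each array (x axis) from the control mean, in log2 units given in the cells and by colour, for the 10 patterning factors and for the mean of 14 epithelium markers (y axis). The Elf5 row is between -0.36 and -0.29 and the Ehf row between 0.20 and 0.54 in the 3 mutants, while the epithelium markers stay within 0.05 of the control mean.

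By the root mean square difference of their profiles over the 6 arrays, after each gene's own mean was taken off, the genes most like Elf5 among 19594 searched were Areg, an EGF receptor ligand (0.02), Vsnl1, a neuronal calcium sensor (0.03), and Acat2, a cytosolic thiolase (0.03). The profile of Elf5 itself had a root mean square of 0.16 around its mean. Nearest to Ehf were the clock gene Per1 (0.05), Iqcg (0.05) and Zfp983 (0.07), around a profile of 0.22. Nearest to Mycn were St8sia2, Prlhr and the cyclin Ccne1 (0.01 to 0.02), and nearest to Id2 were Oat, Zfp810 and Egfl7 (0.01 each), profiles so flat that likeness to them says little. With 6 arrays and so many genes searched, near matches arise easily, and these names are a description of the profiles alone.

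Set in its family, Elf5 was the 1 of 26 ETS genes that fell, 0 rose and 25 did not pass, with a family median of -0.02, equal to the median of -0.02 over all probe sets. Elf5 had the lowest and Ehf the highest difference of the 26. Among the 23 ETS genes that are not members, the differences ran from -0.15 (Etv2) to 0.12 (Etv5), 0 passed (limma) and 2 had an unadjusted p under 0.05. Etv5, an FGF-induced factor of the distal tip, stood at 12.11, 12.13 and 12.13 in controls and 12.26, 12.26 and 12.23 in mutants, a small difference with groups apart (0.12, limma adjusted p = 0.321). Its partner Etv4 differed by -0.02, and Spdef, the ETS factor of goblet cells, by 0.06 (adjusted p = 0.737).

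**Figure D4:**
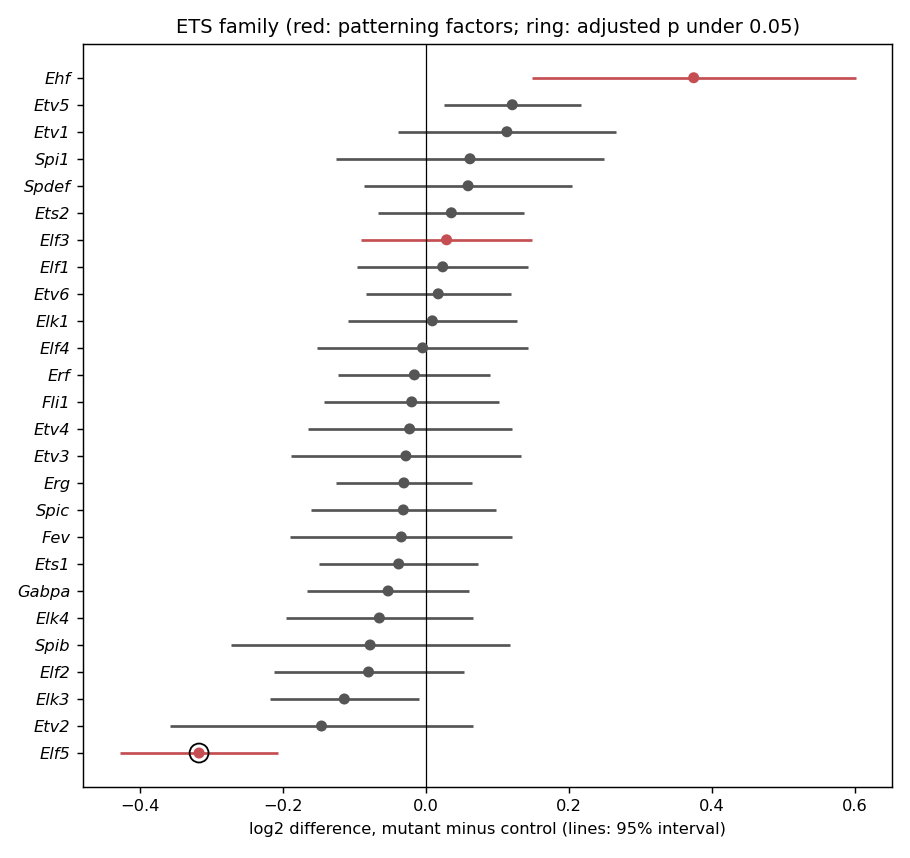
Log2 difference between mutant and control with its 95% interval (x axis) for the 26 measured ETS genes (y axis, sorted), with the 3 patterning factors in red and a ring around the gene that passed. Elf5 at -0.32 and Ehf at 0.37 form the ends of the family.

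In the families of the other members 0 genes passed (limma). Of 17 further Sox genes 2 had an unadjusted p under 0.05, and the first by p was Sox6, a partner of Sox9 in cartilage, which went from 9.06 ± 0.03 to 9.32 ± 0.03 (SD, n = 3 each; log2 difference 0.26, limma adjusted p = 0.0567). Among the other 3 Id genes, 1 of which had an unadjusted p under 0.05, Id3 differed by 0.24 (adjusted p = 0.342). Among 10 Myc relatives and partners, again with 1, Mycl differed by 0.16 (adjusted p = 0.386) and Myc, whose groups overlapped, by -0.12 (adjusted p = 0.489). Of 16 further Klf genes 1 had an unadjusted p under 0.05, Klf10 (0.14, adjusted p = 0.383). The 5 other grainyhead-type genes and the 6 other Nkx2 genes had none, with Grhl1 at -0.14 (adjusted p = 0.520) and Nkx2-6 at -0.06 (0.622).

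Lists of genes around the members were read next, namely targets of Nkx2-1 and Grhl2, airway genes, tip signals and other transcription factors. The lists were chosen with earlier results of these data known. Of 14 targets of Nkx2-1 in lung 1 fell, Lamp3, a membrane protein of lamellar bodies in alveolar type 2 cells, 0 rose and 13 did not pass, around a median of 0.03. Lamp3 stood at 8.30, 8.02 and 7.75 in controls and 6.82, 6.94 and 7.07 in mutants (log2 difference -1.08, limma adjusted p = 0.0232). Its call held in 3 of the 6 fits without 1 array and ended without control 2, mutant 1 or mutant 2 (adjusted p from 0.0223 to 0.0876 over the 6). Of the 14 targets, 7 had an unadjusted p under 0.05 (limma), against 11.8% of all probe sets. Across the whole array, the 3 mutants lay above the 3 controls for 7.83% of probe sets and below them for 10.1%. The groups did not overlap for 8 of the 14 targets, 4 with the mutants above and 4 below. Those above include Slc34a2, a phosphate transporter (0.64, adjusted p = 0.143), and the surfactant gene Sftpc, at 12.85, 12.77 and 12.43 in controls and 13.10, 13.02 and 13.06 in mutants (0.38, adjusted p = 0.212). Those below include Scgb3a2, an airway secretoglobin (-0.76, adjusted p = 0.0699). Nkx2-1 itself differed by 0.06, while its listed targets ran from -1.08 to 0.64.

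Of 22 proximal airway genes 2 fell, the keratin Krt19 among them, 0 rose and 20 did not pass. The median was -0.11, against -0.02 over all probe sets, with 17 of 22 below 0. Of all 28815 probe sets, 16827 were below 0. In 9 of the 22 every mutant array was below every control array and in 0 above, where 10.1% of all probe sets were below and 7.83% above. Of those 9 genes, Krt4, Krt5 and Krt13 are also markers of oesophagus and stratified epithelium, and Krt19 is also a mesothelium marker. Of the markers of those tissues, 9 of 11 and 7 of 8 were below 0, each with a summed level lower in the mutants without overlap, and their part in the differences of the airway genes was not tested. Krt19 stood at 10.16, 10.02 and 10.02 in controls and 9.76, 9.60 and 9.57 in mutants (log2 difference -0.42, limma adjusted p = 0.0382), with Krt15 at -0.27 (0.110) and Cbr2, a club cell enzyme, at -0.83 (0.201). The difference of Sox2 was above 0. The Krt19 call held in 1 of the 6 fits without 1 array, that without mutant 1 (adjusted p from 0.0455 to 0.162 over the 6).

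Of 23 distal tip signals and targets 0 passed (limma, 4 at an unadjusted p under 0.05), with a median of -0.02. They included the receptor Fgfr2 at 0.11 (adjusted p = 0.425), the tip ligand Bmp4 at -0.11 (0.502), the ligand gene Shh at 0.05 (0.693) and the receptor Ret, with the smallest p, at -0.20 (0.312). Of 31 other epithelial transcription factors 0 passed (limma), and 6 had an unadjusted p under 0.05. Hopx, a homeodomain-only factor of alveolar type 1 cells, had the smallest p and stood at 9.09, 9.06 and 8.97 in controls and 8.84, 8.70 and 8.75 in mutants (-0.28, adjusted p = 0.102). The pioneer factor Foxa1 differed by 0.15 (adjusted p = 0.289), Foxa2 by 0.00683 and Gata6 by -0.05. Of 21 junction and adhesion targets of Grhl2 0 passed (limma) and 1 had an unadjusted p under 0.05, Ovol2, a zinc finger factor of epithelia (-0.21, adjusted p = 0.176), and the median was 0.02, beside a difference near 0 for Grhl2.

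**Figure D5:**
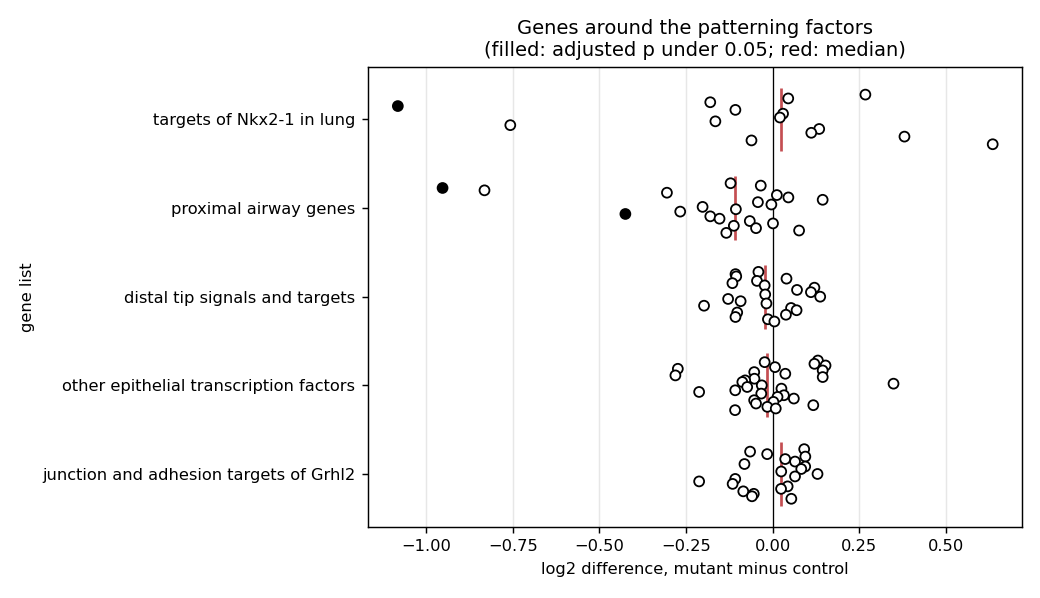
Log2 difference between mutant and control (x axis) of the genes in 5 lists around the patterning factors (y axis), 1 point per gene, filled where the adjusted p was under 0.05, with the list median as a red line. The proximal airway genes have a median of -0.11, and the targets of Nkx2-1 spread widest, from -1.08 to 0.64.

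Several members are also expressed outside the lung epithelium, and markers of those cells were read beside them. The 14 epithelium markers had 0 that passed (limma, 0 at an unadjusted p under 0.05), with Krt18 highest at 0.13 and Krt7 lowest at -0.14, and a summed linear level of 30403 to 31387 in controls and 30143 to 31917 in mutants. Cartilage expresses Sox9, and of its 11 markers 1 fell, Col11a1 (log2 difference -0.32, limma adjusted p = 0.0488; from 0.0646 to 0.190 in the 6 fits without 1 array, which each ended the call), while Sox6 was highest at 0.26. Of these 11 markers 9 were below 0 and 2 above, and 7 had an unadjusted p under 0.05 (limma), against 11.8% of all probe sets. Their summed level was 4806 to 5173 in controls and 4604 to 4796 in mutants, lower without overlap. The part of cartilage in the Sox9 values was not tested. For oesophagus and stratified epithelium, which can express Sox2, Elf3, Elf5, Ehf and Klf5, 0 of 11 markers passed (limma, 6 at an unadjusted p under 0.05), from Sprr3 at -0.27 to Krtdap at 0.07. Of all probe sets, 11.8% had such a p. These 11 markers were dim, with a mean log2 level of 6.77, below the array medians of 8.21 to 8.23. Their summed level was 1358 to 1458 in controls and 1276 to 1306 in mutants, lower without overlap as Elf5 was. The part of such tissue in the Elf5 difference was not tested.

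Thyroid, which expresses Nkx2-1, had 0 of 7 markers that passed (limma, 0 at an unadjusted p under 0.05), from Tg at -0.08 to Tshr at 0.06. Mesenchyme, where Id2 and Mycn are also expressed, had 0 of 14 (limma, 3 at an unadjusted p under 0.05), from Col1a1 at -0.28 to Dcn at 0.06. Of the 14, 13 were below 0, as were 16827 of all 28815 probe sets. Its summed level was 48852 to 49982 in controls and 45689 to 48930 in mutants. Its part in the Mycn difference was not tested. Of 8 mesothelium markers 1 fell, Krt19 again, 7 were below 0 and 3 had an unadjusted p under 0.05. Their median was -0.17, with Upk1b highest at 0.08, and their summed level was 5791 to 6052 in controls and 4972 to 5606 in mutants, lower without overlap. Smooth muscle (7 markers, Des lowest at -0.07, Myocd highest at 0.16, Actg2 with the smallest p at 0.16), endothelium (10, Tek at -0.09, Emcn at 0.11), nerve and glia (10, Ret lowest at -0.20), thymus and leukocytes (9, Cd3e at -0.19, Cd68 at 0.22) and erythroid cells (7, Hba-x lowest at -0.49) had 0 that passed in limma, and unadjusted p under 0.05 for 1, 0, 2, 2 and 0 of their genes. In the same order, 2 of 7, 4 of 10, 9 of 10, 6 of 9 and 7 of 7 of these markers were below 0. The list medians were 0.04, 0.01, -0.10, -0.09 and -0.30, and 0 of the erythroid genes had groups apart. No marker can be read as absent, because no detection values were used and the scale has no 0.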

How the data were processed

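Expression was measured in 6 lungs, 3 per group. Each deposited value is a probe set's log2 expression, computed by the authors with RMA (background correction, normalization between arrays and summary of probes), per the submitters' processing notes. The sources used here do not give the array type, build or software versions. The 2 deposited tables hold the same log2 values. One also holds the authors' comparison, a signed fold (a ratio), a score, a p-value and a q-value in percent, per the file headers, by a test that the sources used here do not name.

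Symbols were updated through the gene table of assembly GRCm38.p6, which named 20525 probe sets by accession, 2585 by gene ID, 1036 by symbol and 363 by an older symbol, while 1019 kept their own name and 3287 had none. A gene was read from its probe set with the highest mean. All 28815 probe sets were fitted in limma 3.58.1 under R 4.3.3 (linear model with moderated errors, 2-sided, neither covariate nor filter), with Benjamini-Hochberg adjustment over all of them and a threshold of 0.05. Intervals are 95% and come from the same fit. The fit was tested on simulated data. Figures used matplotlib 3.10.9.

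All members were named, with the genes of each other list that passed, the one with the smallest p and, for cell markers, the lowest and highest; Krt15, Cbr2, Slc34a2, Sftpc, Scgb3a2, Etv4, Spdef, Myc, Fgfr2, Bmp4, Shh, Foxa1, Foxa2, Gata6 and Apip were added after their values were seen. Some genes that this rule picks, one of them called, are not reported here. For members whose groups did not overlap, the 3 genes with the nearest profile were named. Predicted genes were left out of that search. The members and lists were chosen with earlier results of these data known. The forkhead words searched were chosen after the data were seen. The alternatives were other normalizations, filters, priors, thresholds, weights, probe set choices, the replicate number as a block, the authors' q, and leaving out each array. The 3 arrays per group limit the precision.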

Additional observations from a re-analysis of the deposited data

How the results depend on the processing

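Elf5 stayed lower in all 20 alternatives, from -0.34 to -0.29, and past its threshold in 12 of them. It did not pass in the 6 fits without 1 array, with the replicate number as a block (adjusted p = 0.149) or at a fold of at least 1.5. The count of members past the threshold was 1, and it became 2 with array weights, 0 with the replicate block, 0 at a fold of at least 1.5, and 0 in each fit without 1 array. The count over all probe sets was 223. It became 1748 with array weights, whose estimate stopped before it converged, 7 with the replicate block, 360 at an adjusted p under 0.1, 107 with a fold of at least 1.5, 496 by the authors' deposited q, and between 11 (without mutant 2) and 152 (without control 1) when 1 array was left out. Replicate numbers were not treated as pairs: deviations of same-numbered arrays correlated at -0.194, 0.0395 and -0.185, and 1 of 3 control arrays correlated best with its own number. Ehf, Mycn, Id2, Sox2 and Nkx2-1 kept their direction in all 20 alternatives, and Ehf passed only with array weights. Much of this was fixed in advance, for Elf5 too. The block, the prior, the filters and the thresholds leave a member's difference as it was. Where the groups do not overlap, as for Elf5, Ehf, Mycn and Id2, leaving out 1 array cannot change the sign. Members with differences near 0 changed sign, with Klf5 at 0.0216 with array weights and, over the fits without 1 array, ranges of -0.112 to 0.0651 for Klf5, -0.0409 to 0.0426 for Grhl2, -0.00165 to 0.0833 for Sox9 and -0.0143 to 0.0533 for Elf3. The cause of these shifts was not tested. With 3 embryos a group and no detection values, a small change of a dim gene could be missed.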

Other observations

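Vsnl1, a neuronal calcium sensor whose profile was the second nearest to that of Elf5, lies 2 measured genes from Mycn on chromosome 12, in the gene order of assembly GRCm38.p6. It went from 10.17 ± 0.04 to 9.87 ± 0.00343 (log2 mean ± SD, n = 3 each), and it fell by 0.30 on the log2 scale (limma adjusted p = 0.0301). The call ended in each of the 6 fits without 1 array (adjusted p from 0.0575 to 0.153). Cyria, the measured gene between Vsnl1 and Mycn, differed by -0.0017 (adjusted p = 0.994), and Ddx1, on the other side of Mycn, by -0.10 (adjusted p = 0.492). Vsnl1 was singled out after its values were seen.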
